A study of Mus musculus with 38 samples.

Results

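Col6a5, Rpl29, Tma7 and Arpp21 are 4 protein-coding genes that lie within 6.38 Mb of each other on mouse chromosome 9. They are 4 of the 48709 genes counted in the hippocampus of 38 mice, and all 4 passed the filter on low counts. They were chosen by their RNA levels, because these differed between APPPS1ΔE9 and WT mice given anle138b at 6 months of age. The levels of those 8 mice are therefore given as a description that supports nothing. The question followed here was whether their levels fall into steps from mouse to mouse, as the levels of allele-linked genes can, and whether the genotype difference was also seen in the 30 mice that did not choose them.

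Collagen VI is an extracellular matrix protein built from several α chains, and Col6a5 encodes one of them, next to the genes of related chains. Rpl29 encodes a protein of the large ribosomal subunit, and Tma7 a small protein found with the translation machinery. Arpp21 encodes an RNA-binding phosphoprotein of neurons with an R3H domain, and its gene hosts a copy of the microRNA miR-128. Genes that sit close together on a chromosome are inherited together, so mice of one colony that carry different stretches of parental chromosome can differ in the levels of several neighbours at once.

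The mice carried either the APPPS1ΔE9 transgenes (APPdelta9 in the labels), which include a mutant APP gene driven by the mouse prion protein promoter, or no transgene (WT), all on a strain labelled C57BL/6. They received chow with the compound anle138b or placebo chow and were analyzed at 6 months (pre-plaque group) or 10 months of age (post-plaque group). The pre-plaque group held 4 mice of each genotype and chow. In the post-plaque group there were 5 WT mice on each chow, 5 APPPS1ΔE9 mice on placebo and 7 on anle138b. Each library came from the hippocampus of a single mouse, and mice are named here as in their titles, with A for placebo and B for anle138b chow. Levels are in CPM, the count of a gene relative to the size of its library after scaling with the trimmed mean of M values (TMM).

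Libraries held between 15847985 and 31895808 counted reads, with a median of 24530658. App was between 3228 and 4318 CPM in all APPPS1ΔE9 mice and between 1506 and 1809 CPM in all WT mice. For the 4 placebo-treated WT mice at 6 months the titles say WT while the genotype label says APPdelta9; they were used as WT, and their App levels reached at most 1796 CPM. Xist, transcribed from the inactive X chromosome of females, was at 1170 CPM or more in 12 mice and at most 5.39 CPM in the other 26. The summed level of Y-linked genes was at most 1.87 CPM in the 12 and at least 172 CPM in the 26. The paper describes its animals as male throughout, and the 12 libraries are at odds with that. The reason for this conflict was not tested. Only 1 of the 12 was an APPPS1ΔE9 mouse. Within each age, the lanes in the titles nearly coincided with genotype, so lane and genotype effects cannot be told apart. All 6 markers of hippocampal neurons had reads in every mouse, and their summed level lay between 5225 and 8294 CPM. In bulk tissue, fewer cells of a type and less RNA per cell cannot be told apart.

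The genes lie in the order Col6a5 (chromosome 9, 105856078 to 105960643, minus strand), Rpl29 (106429454 to 106431568, plus strand), Tma7 (109074568 to 109082587, minus strand) and Arpp21 (112065091 to 112235938, minus strand), in the GRCm38 (mm10) build with GENCODE M21 gene models. Tma7 and Rpl29 both have near-identical pseudogene copies elsewhere in the genome, so a read from either can be assigned to a copy. A search of the annotated transcripts with each coding sequence found 9 copies of Tma7 and 58 of Rpl29 among pseudogenes. Of these, 8 and 46 are in the count tables. Reads on pseudogene copies of Tma7 on other chromosomes were found in the mice in which Tma7 was lowest, so the 195-base coding sequence of Tma7 and of the copies concerned are shown. Gm15610 is a processed pseudogene on chromosome 5 (8971948 to 8972142, plus strand), and Gm6916 is a transcribed processed pseudogene on chromosome 7 (128314784 to 128340805, plus strand). Capitals in Tma7 mark each position at which one of these copies differs from it, and capitals in a copy mark its own differences.
Tma7: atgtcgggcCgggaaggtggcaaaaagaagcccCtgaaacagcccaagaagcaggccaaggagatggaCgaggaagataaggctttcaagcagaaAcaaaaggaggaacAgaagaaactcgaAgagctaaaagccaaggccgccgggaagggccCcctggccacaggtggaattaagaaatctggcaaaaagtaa
Gm15610: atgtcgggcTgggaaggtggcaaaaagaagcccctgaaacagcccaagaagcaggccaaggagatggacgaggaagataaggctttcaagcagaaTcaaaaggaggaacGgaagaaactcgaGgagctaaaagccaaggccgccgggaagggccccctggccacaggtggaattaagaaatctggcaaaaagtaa
Gm6916: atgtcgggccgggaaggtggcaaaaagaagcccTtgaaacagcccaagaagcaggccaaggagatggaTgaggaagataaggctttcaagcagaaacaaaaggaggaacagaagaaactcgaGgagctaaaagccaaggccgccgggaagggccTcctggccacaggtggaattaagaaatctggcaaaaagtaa
Counted from the A of the start codon, with the base of Tma7 first, Gm15610 differed by C10T, A96T, A110G and A123G. Gm6916 differed by C34T, C69T, A123G and C155T. Each copy thus matched Tma7 at 97.949% of 195 bases, and A123G was common to both. Another copy, Tma7-ps on chromosome 1, also carried A123G, with C141T as its only other difference.

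Rpl29 was the gene with a step. Levels in the placebo-treated WT mice at 6 months were 8.72, 9.58, 9.35 and 10.6 CPM (mice A30, A31, A37 and A77). The placebo-treated APPPS1ΔE9 mice of the same age had 4.14, 4.87, 7.72 and 11.001 CPM (mice A17, A71, A74 and A75). Mice A17 and A71 thus lay well below every WT mouse, whereas mouse A75 lay above them all.

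The anle138b-treated mice at 6 months, which chose the gene, had 9.41, 11.5, 8.36 and 9.42 CPM in WT (mice B33, B39, B41 and B83) and 4.97, 5.29, 5.21 and 4.78 CPM in APPPS1ΔE9 mice (B15, B16, B27 and B84). All 4 of these transgenic mice were at the level of mice A17 and A71.

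At 10 months, placebo-treated WT mice had 6.86, 8.01, 9.60, 8.05 and 9.22 CPM (mice A52 to A56) and anle138b-treated WT mice 8.96, 8.41, 7.33, 8.67 and 8.17 CPM (mice B60 to B64). Placebo-treated APPPS1ΔE9 mice had 8.86, 8.08, 8.53 and 7.98 CPM (mice A57, A86, A87 and A91), with mouse A100 apart at 4.51 CPM. Among the anle138b-treated APPPS1ΔE9 mice, mice B108 and B109 had 4.38 and 5.20 CPM, while mice B58, B59, B93, B97 and B99 had between 7.11 and 8.26 CPM. The low level was therefore found in some APPPS1ΔE9 mice of each of the 4 transgenic groups, and in all 4 mice of the group that chose the gene.

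Placed in order, the 9 lowest mice for Rpl29 lay between 4.14 and 5.29 CPM and the other 29 between 6.86 and 11.5 CPM. The gap between mouse B16, the ninth, and mouse A52, the tenth, was 0.37 on the log2 scale. This was 17.4 times the median gap between neighbours, and the next widest gap was 0.15. The gap after mouse B16 was taken over all 38 mice, and B16 itself is among the mice that chose the gene. Its ratio to the median gap was not compared with that of all genes. The median standard deviation within groups was 0.19. Reads on Rpl29 numbered 170 in mouse B16 and 110 in mouse A52, and the exact 95% Poisson intervals of their levels, 4.52 to 6.15 and 5.64 to 8.27 CPM, overlapped. These intervals do not separate this neighbouring pair of mice. The 9 mice (B15, B16, A17, B27, A71, B84, A100, B108 and B109) were all APPPS1ΔE9. Among them B15, B16, B27 and B84 belong to the mice that chose the gene. Outside those, 5 of 16 transgenic mice and 0 of 14 WT mice were among the 9.

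The titles give a lane for each library, and 16 pairs of sample index and lane recur at both ages, so lanes are read within an age. All 9 mice lay in lanes 5 and 6. At 6 months, lane 6 held 4 mice (B15, B16, B27 and B84), all among the 9, and lane 5 held 6 mice, of which A17 and A71 were among the 9. At 10 months, lane 5 held 6 mice, of which A100 was among the 9, and lane 6 held 6 mice, of which B108 and B109 were among the 9. The part of lane in this pattern was not tested. None of the 9 had high Xist. The 19 APPPS1ΔE9 mice with low Xist included mice on both sides of the gap. The Y-linked sum lay between 172 and 202 CPM in the 9 mice. In the other APPPS1ΔE9 mice with low Xist it lay between 322 and 399 CPM. Among WT mice with low Xist it was 179 CPM in A53 and 174 CPM in B41. It lay between 310 and 378 CPM in the rest of these WT mice. The part of Y-linked expression in the order of Rpl29 was not tested.

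**Figure D1:**
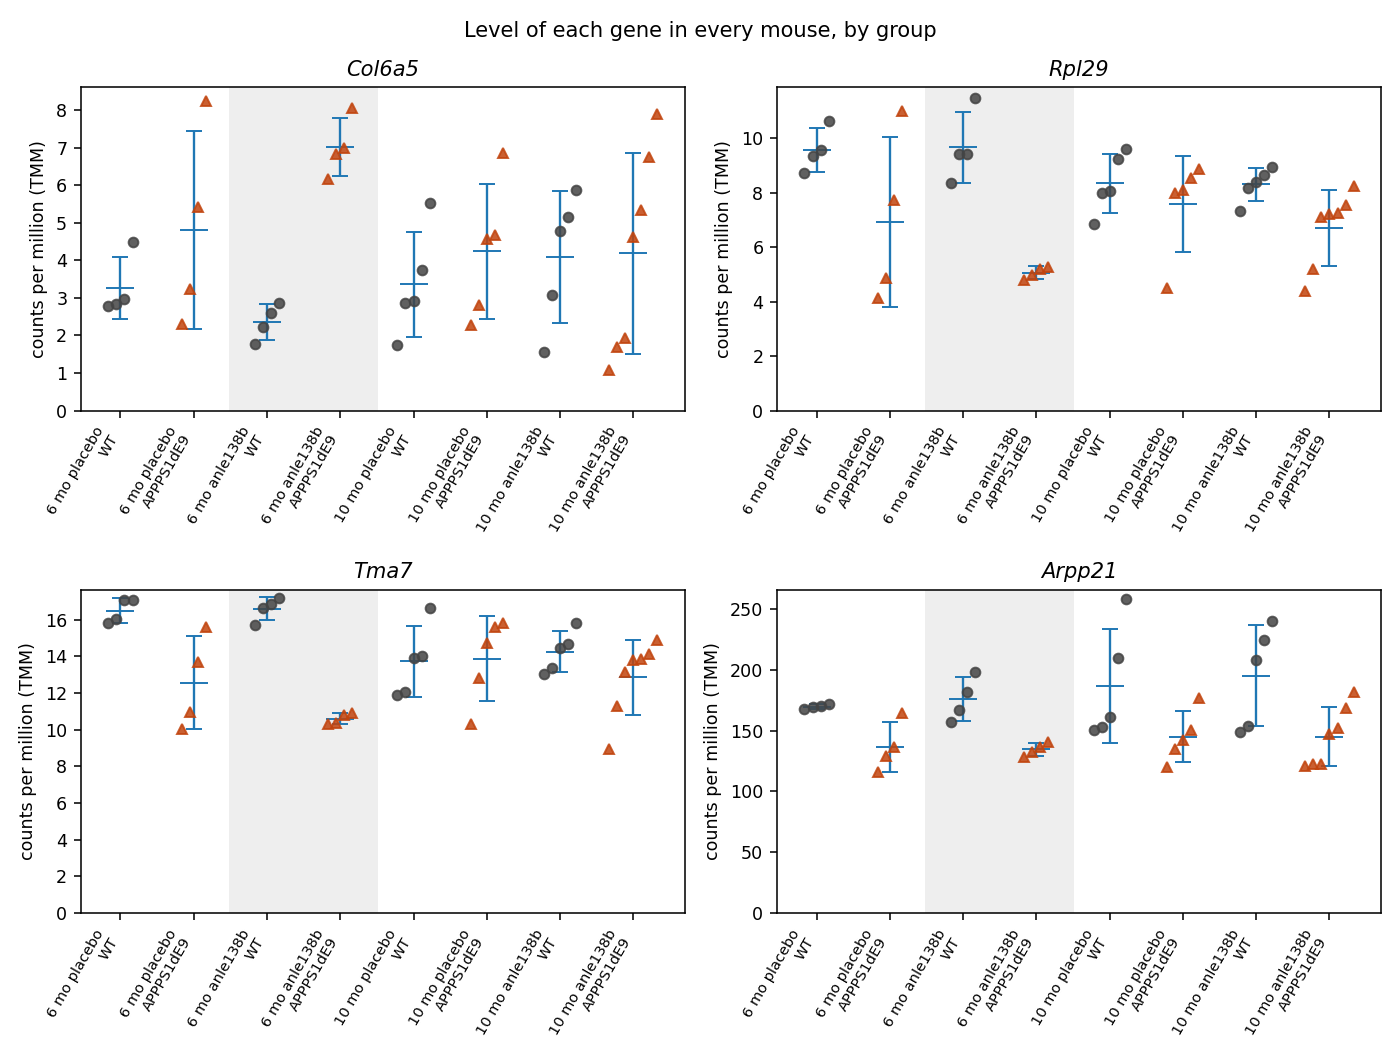
Level of Col6a5, Rpl29, Tma7 and Arpp21 (TMM-scaled CPM, axes from 0) in each mouse of the 8 groups. Circles are WT and triangles APPPS1ΔE9 mice, blue marks are the group mean and its standard deviation, and the grey band marks the 8 mice that chose the genes; in Rpl29, mice at 4.14 to 5.29 CPM lie apart from the rest in 3 transgenic groups and make up the whole of the other one.

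Tma7 placed the same mice lowest. At 6 months, placebo-treated WT mice had 17.1, 15.8, 16.03 and 17.1 CPM, and placebo-treated APPPS1ΔE9 mice 10.96, 10.1, 13.7 and 15.6 CPM (mice A17, A71, A74 and A75). The groups did not overlap, and mice A17 and A71 were again the lower pair. In the anle138b-treated mice at 6 months the levels were 15.7, 16.6, 17.2 and 16.9 CPM in WT and 10.8, 10.4, 10.3 and 10.9 CPM in APPPS1ΔE9 mice.

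At 10 months, WT mice had between 11.9 and 16.7 CPM on placebo and between 13.05 and 15.8 CPM on anle138b. Placebo-treated APPPS1ΔE9 mice had 14.7, 15.8, 15.6, 12.8 and 10.3 CPM (mice A57, A86, A87, A91 and A100). Anle138b-treated APPPS1ΔE9 mice had 14.9, 13.8, 14.1, 13.1 and 13.8 CPM (mice B58, B59, B93, B97 and B99), and mice B108 and B109 had 11.3 and 8.96 CPM. Mice A100, B108 and B109 were thus the lowest of their groups for both genes.

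The 9 lowest mice of all 38 for Tma7 were the same 9 as for Rpl29. Their levels lay between 8.96 and 11.3 CPM, but the tenth mouse (A53, WT) followed closely at 11.9 CPM. Among gaps with at least 3 mice on each side, the widest was only 0.08 on the log2 scale and came after 11 mice. A wider gap lay nearer an end of the order. Tma7 thus had the same lowest mice without a clear step of its own. With CPM by total counts, the widest gap under the same limit was 0.10 and came after the same 9 mice.

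The Tma7 copies had the opposite pattern. Gm15610 had between 15 and 32 reads, or 0.609 to 1.17 CPM, in the same 9 mice and at most 3 reads, or 0.110 CPM, in any other. Gm6916 had between 28 and 45 reads in the 9 mice, or 1.07 to 1.62 CPM. In the other mice it had at most 1 read, with the exception of mouse B39, an anle138b-treated WT mouse with 26 reads (1.48 CPM) and no read on Gm15610. Mouse B39 also had the highest level of Rpl29 (11.5 CPM). Its library held 17764531 counted reads, with reads on 25420 genes, more genes than in any other library. The part of this library-wide trait in its levels was not tested. Tma7-ps, the closest copy, stayed at or below 0.0453 CPM in every mouse.

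When the reads of the 8 copies were added to Tma7, the 9 lowest mice spanned 10.9 to 13.1 CPM and shared 6 mice with the 9 lowest of Rpl29. In the anle138b-treated mice at 6 months that chose the gene, the log2 fold change of Tma7 moved from −0.64 to −0.39 with these reads added. For Rpl29, reads on its 46 copies came to 18.8 to 83.2% of the reads on the gene, with the highest share in mouse B39. With these reads added, the 9 lowest mice were still the same 9, at 6.85 to 7.97 CPM, and the tenth was mouse A52 at 8.67 CPM. Which gene a read over a shared stretch came from cannot be told from the counts.

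**Figure D2:**
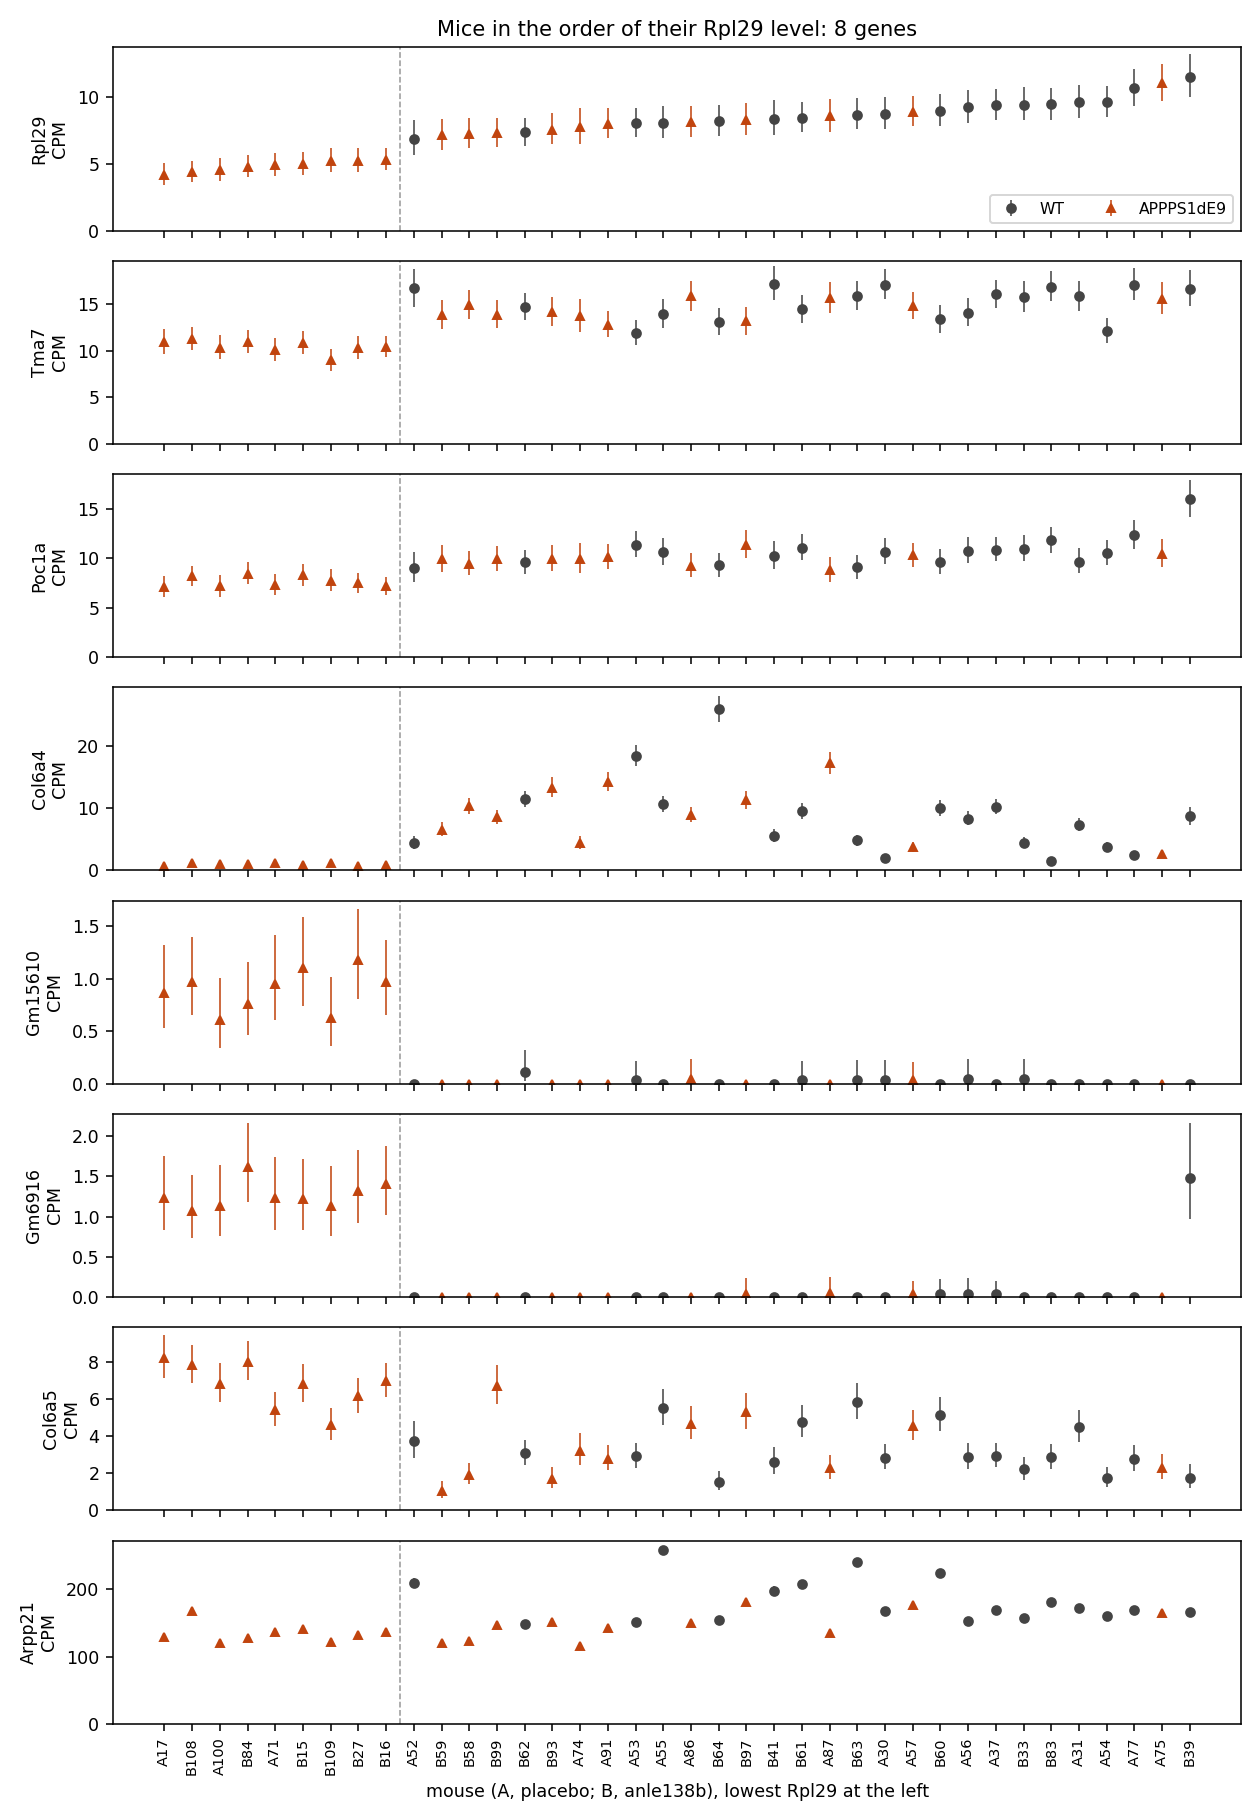
Levels of 8 genes (TMM-scaled CPM, one panel each, axes from 0) with the 38 mice placed in the order of their Rpl29 level and named as in the text. Circles are WT, triangles APPPS1ΔE9, bars are exact 95% Poisson intervals (not drawn at 0 reads), and the dashed line marks the widest gap, after 9 mice; Gm15610 and Gm6916 have reads to the left of it and nearly none to the right, apart from Gm6916 in mouse B39.

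The identity of these mice was then compared with the order of the mice in all 18232 genes that passed the filter over 38 mice. In 5 genes the 9 lowest mice were exactly these: Col6a4, Gm36993, Poc1a, Rpl29 and Tma7. Rpl29 is among the 5 by definition, since its own order gave the 9 mice. Tma7 was chosen by its levels in mice that include B15, B16, B27 and B84. All 5 start within the chromosome 9 window, the 18 Mb that begin at 100 Mb, which holds 226 (1.24%) of the 18232 genes. They lie within 3.09 Mb, with Col6a4 and Tma7 at its edges. In 1 gene the 9 highest mice were exactly these, namely Gm15610, and Gm6916 had 8 of the 9 among its 9 highest. No other gene had 8 or more of the 9 mice at either end of its order. Gm15610 and Gm6916 passed the filter on low counts through the mice in which they were high. Their place among the 18232 genes was thus not independent of the 9 mice. This search finds only genes with these mice at an end of the order of all 38. It could not find Y-linked genes, because the mice with high Xist, at most 1.87 CPM in the Y-linked sum, take their lower end. Restricted to the 30 mice that did not choose the genes, where the 5 lowest for Rpl29 were mice A17, A71, A100, B108 and B109, the same 5 genes had these mice lowest, and Gm15610 and Gm6916 had them highest.

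Poc1a, which encodes a centriole protein and lies close to Rpl29, had its 9 lowest mice between 7.10 and 8.44 CPM and the tenth at 8.76 CPM. Col6a4, a further collagen VI chain, was between 0.734 and 1.23 CPM in its 9 lowest mice and between 1.55 and 25.9 CPM in the others. Gm36993, an unclassified transcript that overlaps the start of Col6a4 on the opposite strand, had no read in these 9 mice and at least 1 read in each of the other 29. This allows up to 3 reads per library in the 9 mice, for counting error only. Levels of Col6a4 varied widely among the other mice, with a median standard deviation within groups of 1.06 on the log2 scale against 0.19 for Rpl29.

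Col6a5, which lies 28810 bases from Col6a4, was graded and not stepped. Levels at 6 months on placebo were 2.84, 4.499, 2.96 and 2.77 CPM in WT (mice A30, A31, A37 and A77) and 8.25, 5.43, 3.23 and 2.31 CPM in APPPS1ΔE9 mice (A17, A71, A74 and A75). The groups overlapped, with mice A17 and A71 at the top. In the mice that chose the gene, WT mice had 2.22, 1.76, 2.61 and 2.87 CPM and APPPS1ΔE9 mice 6.83, 7.002, 6.17 and 8.05 CPM.

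Placebo-treated mice at 10 months had between 1.75 and 5.53 CPM in WT and 4.56, 4.68, 2.28, 2.81 and 6.86 CPM in APPPS1ΔE9 mice (A57, A86, A87, A91 and A100). On anle138b, WT mice had between 1.56 and 5.87 CPM, and APPPS1ΔE9 mice 1.93, 1.07, 1.70, 5.33, 6.74, 7.89 and 4.62 CPM (mice B58, B59, B93, B97, B99, B108 and B109). The genotypes overlapped throughout at 10 months. Of the 9 mice lowest for Rpl29, 7 were among the 9 highest for Col6a5, and mouse B99, at 6.74 CPM, reached the same range with Rpl29 at 7.26 CPM. These 7 include mice B15, B16, B27 and B84, which chose both genes, so that part of the overlap followed from the choice. Among gaps with at least 3 mice on each side, the widest in the order of Col6a5 was 0.26 on the log2 scale, after 20 mice. It was below the median standard deviation of Col6a5 within groups, 0.60. A wider gap lay nearer an end of the order. Col6a6, the chain gene on the other side of Col6a5, also had 7 of the 9 mice among its 9 highest.

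Arpp21 showed no step and was the gene called for genotype in the independent mice. That call was lost with Y-linked expression as a covariate and in the mice with low Xist alone, as given below. Placebo-treated mice at 6 months had 168, 172, 170 and 169 CPM in WT (mice A30, A31, A37 and A77) and 129, 137, 116 and 165 CPM in APPPS1ΔE9 (A17, A71, A74 and A75). These groups did not overlap. In the mice that chose the gene the levels were 157, 166, 198 and 181 CPM in WT and 141, 137, 133 and 128 CPM in APPPS1ΔE9.

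At 10 months the placebo-treated WT mice had 210, 151, 161, 258 and 153 CPM, and the placebo-treated APPPS1ΔE9 mice 177, 151, 135, 142 and 120 CPM. Anle138b-treated WT mice had 224, 208, 149, 240 and 154 CPM. Their APPPS1ΔE9 counterparts ranged from 121 to 182 CPM with a median of 147 CPM. The 10-month groups overlapped. Only 5 of the 9 mice lowest for Rpl29 were among the 9 lowest for Arpp21. The widest gap was 0.12 on the log2 scale, after 32 mice.

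To test genotype in mice that did not choose the genes, a common effect was fitted over 16 APPPS1ΔE9 and 14 WT mice in 3 strata (6 months placebo, 10 months placebo, 10 months anle138b). In this fit 1 of the 4 genes passed an adjusted p of 0.1, Arpp21, which was lower in APPPS1ΔE9 mice. Over all 18054 genes tested, 299 (1.66%) passed, and 25 (0.138%) passed in the lower direction. Arpp21 fell by 0.38 on the log2 scale (SE 0.09, adjusted p = 0.014 with edgeR's quasi-likelihood test and Benjamini-Hochberg adjustment). Its mean was 143 ± 21.3 CPM (SD, n = 16) in APPPS1ΔE9 and 185 ± 36.3 CPM (SD, n = 14) in WT mice. The call held with each mouse left out in turn and in the 10-month mice alone (adjusted p = 0.092 with edgeR). It was lost with Y-linked expression as a covariate, where the log2 fold change was −0.33 (adjusted p = 0.24 with edgeR). In the 15 APPPS1ΔE9 and 5 WT mice with low Xist, the log2 fold change was −0.34 and the adjusted p from edgeR was 0.35. The Y-linked covariate does not stand for sex alone, since the Y-linked sum ran from 172 to 399 CPM among mice with low Xist. The part of sex in this result was not tested further, since high Xist was nearly confined to WT mice. Marker lists of cell types were read beside this result. The summed level of 5 microglia markers lay between 321 and 491 CPM in the 16 APPPS1ΔE9 mice and between 252 and 338 CPM in the 14 WT mice. That of 4 astrocyte markers lay between 3217 and 4590 CPM and between 2925 and 3946 CPM, respectively. In the other 5 lists the ranges of the genotypes overlapped widely, with medians of 7067 and 6586 CPM for hippocampal neurons, 4949 and 5196 CPM for oligodendrocytes, and 88.1 and 90.1 CPM for thalamus in APPPS1ΔE9 and WT mice. Medians were 97.8 and 117 CPM for leptomeninges and fibroblasts and 107 and 140 CPM for choroid plexus. Over the 30 mice, each pair of values taken from the same library, Arpp21 had r = −0.73 with the thalamus list, −0.71 with hippocampal neurons, −0.69 with microglia, −0.69 with oligodendrocytes, 0.53 with leptomeninges and fibroblasts, −0.36 with astrocytes and −0.14 with choroid plexus. The part of these cell types in the Arpp21 result was not tested.

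The other 3 genes did not pass in this fit, with edgeR and with DESeq2. Rpl29 had a log2 fold change of −0.30 (SE 0.11, adjusted p = 0.39 with edgeR), with means of 7.04 ± 1.92 CPM (SD, n = 16) in APPPS1ΔE9 and 8.68 ± 0.986 CPM (SD, n = 14) in WT mice. Tma7 had −0.16 (SE 0.08) at an adjusted p of 0.63, and Col6a5 had 0.28 (SE 0.26) at an adjusted p of 0.87, both with edgeR. The unadjusted p of Rpl29 was 0.015 and that of Tma7 was 0.051 in the same edgeR fit.

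Within single strata, edgeR called none of the 4 genes. At 6 months on placebo, where 12 of 16774 genes (0.0715%) passed, Tma7 had a log2 fold change of −0.39 (SE 0.12) and Arpp21 of −0.31 (SE 0.09), with adjusted p-values of 0.36 and 0.35 from edgeR. Their unadjusted p-values from edgeR were 0.0074 and 0.0037, and DESeq2 called Arpp21 (adjusted p = 0.071) and gave no adjusted p for the other 3. Rpl29 had −0.47 (SE 0.29) and Col6a5 0.57 (SE 0.39) in the same comparison.

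At 10 months on placebo, 55 of 16971 genes (0.324%) passed, and the log2 fold changes were −0.37 (SE 0.16) for Arpp21, −0.15 (SE 0.17) for Rpl29, 0.01 (SE 0.13) for Tma7 and 0.34 (SE 0.34) for Col6a5. At 10 months on anle138b, 124 of 17151 genes (0.723%) passed, 5 of them (0.0292%) in the lower direction. The log2 fold changes there were −0.43 (SE 0.14) for Arpp21, −0.31 (SE 0.14) for Rpl29, −0.15 (SE 0.11) for Tma7 and 0.04 (SE 0.48) for Col6a5. Unadjusted p-values under 0.05 from edgeR were 0.040 for Arpp21 on placebo, and 0.010 for Arpp21 and 0.044 for Rpl29 on anle138b. DESeq2 called none of the 4 in either.

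The genotype effect was then compared among the 3 strata in a single fit. None of the 18054 genes passed with edgeR, 1003 had an unadjusted p under 0.05, and DESeq2 called 19, none of them among the 4. Adjusted p-values from edgeR were between 0.93 and 0.97 for the 4 genes, so a difference between ages or chows was not shown for any of them.

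The chow comparisons at 10 months gave no call. In APPPS1ΔE9 mice, 0 of 17110 genes (0%) passed with edgeR, which found 254 at an unadjusted p under 0.05, and DESeq2 called 0. In WT mice, 0 of 16986 genes (0%) passed with edgeR, with 212 at an unadjusted p under 0.05, and DESeq2 called 0. Among the 4 genes, the log2 fold change of anle138b over placebo ran from −0.18 (SE 0.18) for Rpl29 to 0.00 (SE 0.12) for Arpp21 in APPPS1ΔE9 mice. It ran from −0.01 (SE 0.10) for Rpl29 to 0.29 (SE 0.37) for Col6a5 in WT mice. Standard errors of Rpl29 and Tma7 were larger in APPPS1ΔE9 (0.18 and 0.13) than in WT mice (0.10 for each).

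**Figure D3:**
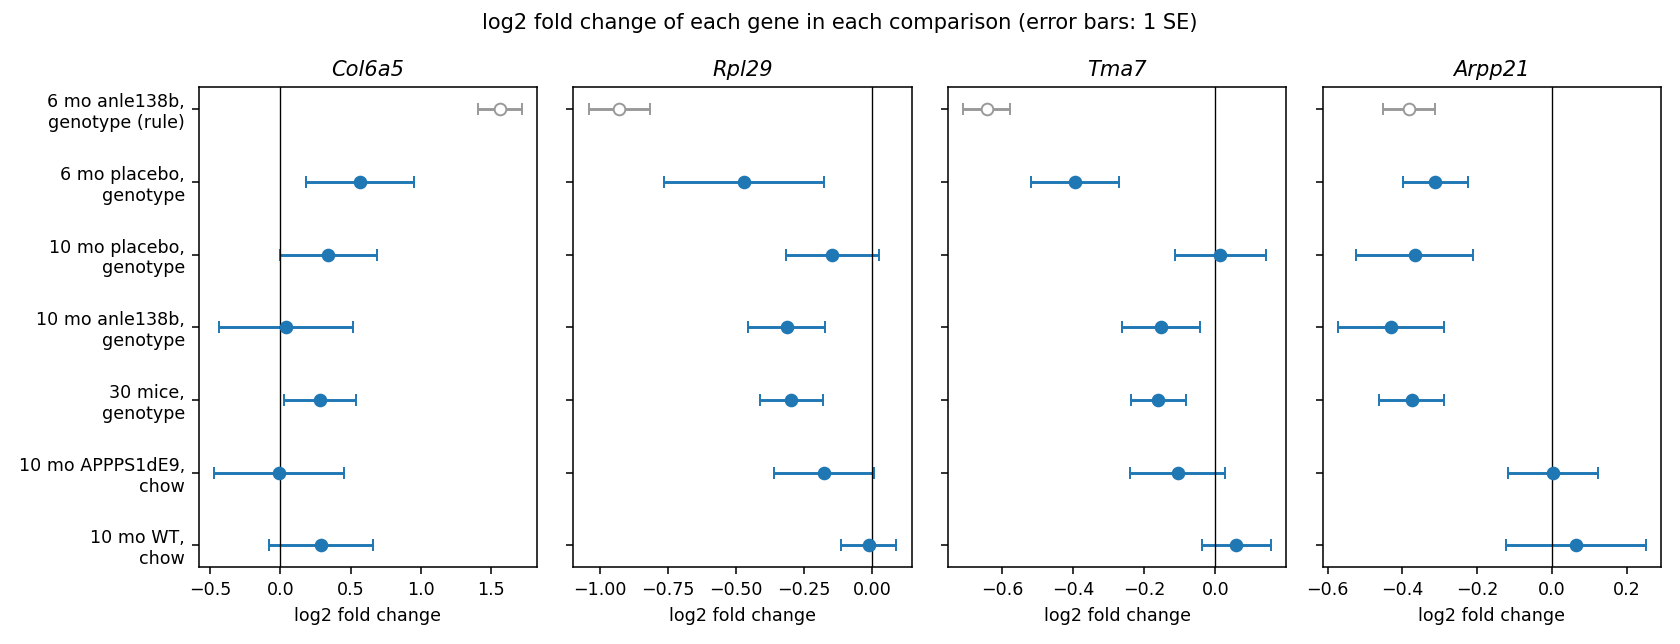
log2 fold change and SE of each gene in each comparison, with a separate horizontal scale for each gene. Open grey circles are the contrast that chose the genes and blue circles are comparisons in other mice; the open circle is farther from 0 than the 30-mouse value in Col6a5, Rpl29 and Tma7, and close to it in Arpp21.

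In the contrast that chose the genes, given as a description, the log2 fold changes of APPPS1ΔE9 over WT were 1.56 (SE 0.16) for Col6a5, −0.93 (SE 0.11) for Rpl29, −0.64 (SE 0.07) for Tma7 and −0.38 (SE 0.07) for Arpp21. Of 17033 genes, 8 (0.047%) passed an adjusted p of 0.1 with edgeR there, 2 of them (0.0117%) in the lower direction. The genes of the chromosome 9 window nearest that threshold on its inner side were Col6a5, Tma7 and Rpl29, all well within it. The nearest on its outer side were Arpp21, Col6a6 (log2 fold change 1.54) and Poc1a (log2 fold change −0.64), all well beyond it. Arpp21 was thus on the far side of this threshold in the contrast by which it was picked.

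Over the 223 genes of the window tested in the 30 mice, 4 (1.79%) passed, a share near the 1.66% of all genes, and the median log2 fold change was 0.00, as it was over all genes. The count is thus no result about the window. Beside Arpp21 these were AU023762, which was lower in APPPS1ΔE9 mice (log2 fold change −1.20, SE 0.33, adjusted p = 0.066 with edgeR), and Tgfbr2 and Cmtm7, which were higher. Tgfbr2, a receptor of transforming growth factor β, rose by 0.38 (SE 0.07, adjusted p = 0.0013 with edgeR), and Cmtm7, a membrane protein of the chemokine-like factor family, rose by 0.38 (SE 0.11, adjusted p = 0.086 with edgeR). None of these 3 had 7 or more of the 9 mice at one end of its order. At an adjusted p of 0.05 only Arpp21 and Tgfbr2 remained.

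**Figure D4:**
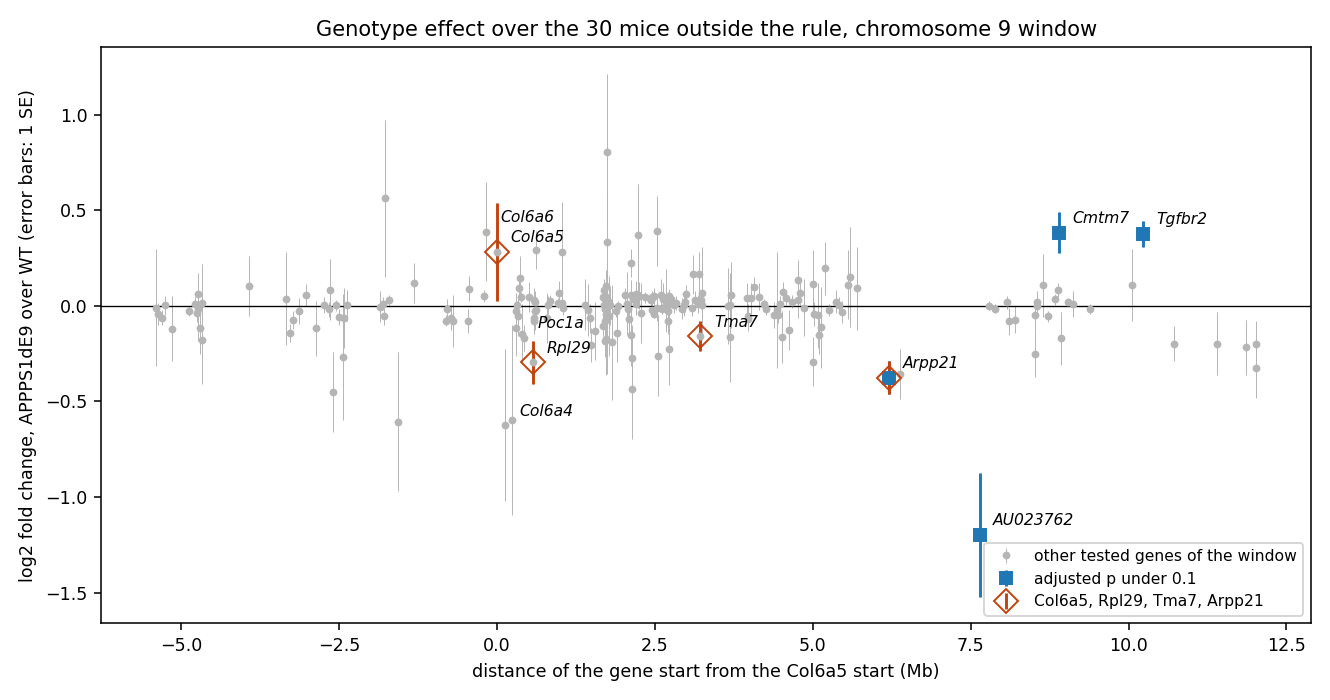
log2 fold change of APPPS1ΔE9 over WT with 1 SE for the 223 tested genes of the chromosome 9 window in the 30 mice that did not choose the genes, by distance of the gene start from the Col6a5 start. Blue squares passed an adjusted p of 0.1 and red diamonds are the 4 genes; Arpp21 is the only gene with both marks, and most genes lie near 0.

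Relatives of the 4 genes were looked at in the same fit. None of the 5 other collagen VI chains passed, with log2 fold changes from −0.62 (Col6a4) to 0.39 (Col6a6) and a median of −0.26. Of 45 tested genes of the large ribosomal subunit beside Rpl29, 0 passed in either direction, and the median was −0.01 with a range from −0.19 to 0.16. The 4 genes of translation re-initiation and the machinery around Tma7 (Tma16, Mcts1, Denr and Eif2d) lay between −0.05 and 0.02. R3hdm1, R3hdm2, R3hdm4, Arpp19 and Ensa, relatives of Arpp21 by domain or name, lay between −0.06 and 0.05, and none of these 9 genes passed. Over all genes the median was 0.00. Of the 8 Tma7 copies, Gm15610 and Gm6916 passed the filter on low counts, and among these 30 mice only 5, all transgenic, had more than 3 reads on either. They passed the filter through those mice, so no test of them is given. The 2 tested copies of Rpl29 did not pass, and no gene named Rpl29-ps or Tma7-ps had enough reads to be tested.

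Levels between genes were compared per length, as CPM per kb of exon. The median over 38 mice was 7.17 for Rpl29, 10.3 for Tma7, 8.80 for Arpp21 and 0.371 for Col6a5. Rpl29 was 23rd from the lowest of 49 large-subunit genes on this scale. Of the annotated features that overlap the 4 genes, Ccdc51 shares the edge of Tma7 on the opposite strand and had a median of 130 reads. The long non-coding RNA 2900079G21Rik overlaps the start of Arpp21 on the opposite strand with a median of 43 reads. Counting by strand is not stated, so such reads cannot be assigned with certainty.

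Genes with the pattern most like each of the 4 were ranked by Pearson's r of log2 CPM over the 30 mice, as a description of these mice. Rpl29 was most like Poc1a (r = 0.85), Tma7 (r = 0.74) and Exosc9 (r = 0.68), a subunit of the RNA exosome on chromosome 3. Its most opposite genes were Gm15610 (r = −0.87), Gm6916 (r = −0.86) and Col6a6 (r = −0.69). Gm15610 and Gm6916 entered the ranking through the mice in which they were high. Tma7 was most like Rpl29, Gm45871 (r = 0.73) and Exosc9 (r = 0.71), and most opposite to Gm6916 (r = −0.79), Gm15610 (r = −0.75) and Gcn1l1 (r = −0.70). Among the 20 genes with the highest absolute r, 6 for Rpl29 and 4 for Tma7 lay in the chromosome 9 window. With Spearman's rho, which uses the order of the mice alone, these numbers were 2 and 0.

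Col6a5 and Arpp21 were most like genes elsewhere. Col6a5 resembled Lhx9 (r = 0.72), a LIM-homeobox transcription factor, Cfap54 (r = 0.71), a gene of motile cilia, and Gpr1 (r = 0.68). It was most opposite to Xk (r = −0.72), Igbp1 (r = −0.71) and Tph2 (r = −0.70), the enzyme of serotonin synthesis in neurons. Arpp21 resembled Trim66 (r = 0.81), Mttp (r = 0.79) and the non-coding RNA Rian (r = 0.79), and was most opposite to Arpc5 (r = −0.84) and Cnih2 (r = −0.82). Of its 20 highest absolute values, 1 lay in the window, and for Col6a5 none did. Between the 4 genes, r was 0.74 for Rpl29 and Tma7, −0.48 for Col6a5 and Rpl29, −0.32 for Col6a5 and Tma7, and 0.28 for Col6a5 and Arpp21. Arpp21 had r = 0.42 with Rpl29 and with Tma7.

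Marker levels were also read beside the order of Rpl29. The 9 mice lowest for Rpl29 spanned 61.96 to 7483 CPM in the sum of 6 choroid plexus markers, and the 38 mice spanned 32.8 to 7961 CPM. For 5 thalamus markers the spans were 43.1 to 139 CPM and 37.4 to 144 CPM, and for 6 markers of leptomeninges and fibroblasts 53.7 to 191 CPM and 22.3 to 220 CPM. Microglia markers spanned 294 to 463 CPM in the 9 mice and 252 to 491 CPM in all. Narrower parts of the whole span were covered by the 9 mice for astrocytes (3233 to 3990 of 2925 to 4590 CPM) and oligodendrocytes (3322 to 5724 of 2169 to 6935 CPM). For hippocampal neurons the 9 mice spanned 5835 to 7830 CPM. No marker of any list was at 0 in any mouse, and the part of these cell types in the order was not tested.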

How the data were processed

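Poly(A) RNA of the hippocampus of 38 mice, 1 library per mouse, was prepared with TruSeq chemistry. The authors aligned reads to mm10 with STAR and counted them per gene with HTSeq, and they deposited raw counts per gene, which are not normalized. The annotation release and the use of strand are not given in the sources used here. Of 48709 gene IDs, 48349 were matched to GENCODE M21 for symbols and positions. Totals per library ranged from 15847985 to 31895808 reads. Intervals cover counting error only.

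Genotype and chow were tested with the quasi-likelihood test of edgeR 4.0.16 in R 4.3.3 (TMM scaling, filterByExpr with a minimum count of 10 and a minimum total of 15, robust fit). Calls required a Benjamini-Hochberg adjusted p under 0.1. The fit over 30 mice held the 3 age and chow strata as a covariate. The contrast that chose the 4 genes was fitted in the same way only to place genes on either side of the threshold, and its values are a description. Mice are separate animals, so p-values measure the spread between animals. DESeq2 1.42.0, RLE size factors, no filter, a threshold of 0.05, Y-linked expression as a covariate, a replicate block, all 8 groups in one fit and leaving out each mouse were the alternatives. Summing the reads of copies, the 10-month mice alone, the low-Xist mice alone and the order of the mice under other scalings were added after the data were seen. The fit was tested on simulated data. Likeness was measured on log2 CPM with a prior count of 2.

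The 4 genes, the gene lists and the window from 100 to 118 Mb of chromosome 9 were chosen with earlier results of these data known. Named genes were the 4, App, the 3 highest and 3 lowest in likeness to each, called genes of the window, those next to the threshold of the contrast that chose the 4, and listed relatives, of which some results are not reported here. Col6a4, Gm36993, Gm15610, Gm6916 and mouse orders were singled out after their values were seen. Copies were annotated transcripts that matched a coding sequence over at least 75% of its length at 90% identity or more.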

Additional observations from a re-analysis of the deposited data

Results flagged for a closer look

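Of 57 groups of mice looked at in 8 genes, each with at least 10 reads in its highest mouse, 6 held a mouse far from the others by Dixon's criterion at 95%. Chance gives about 1 in 20, but the number flagged cannot be set against it. The flagged groups of Gm15610 and Gm6916 reached 10 reads only through the flagged mouse. Mouse A100, a placebo-treated APPPS1ΔE9 mouse of 10 months, was far from its group in 3 genes. It had 4.51 CPM of Rpl29, where the next lowest had 7.98 CPM. It also had 0.609 CPM of Gm15610 and 1.14 CPM of Gm6916, where the next highest had 0.0415 and 0.0456 CPM. Mouse B39, an anle138b-treated WT mouse of 6 months, had 1.48 CPM of Gm6916, while the other 3 mice of its group had no read on it. Mouse A31, a placebo-treated WT mouse of 6 months, had 4.499 CPM of Col6a5 against at most 2.96 CPM in its group. Mouse B61, an anle138b-treated WT mouse of 10 months, had 11.1 CPM of Poc1a, where the next highest had 9.61 CPM. The cause of these values was not tested.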

How the results depend on the processing

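The set of 9 lowest mice was the same for Rpl29, Tma7, Poc1a, Col6a4 and Gm36993 with a prior count of 0.5 and with CPM by total counts. In the fit over 30 mice, the number of the 4 genes called went from 1 to 0 with the Y-linked covariate and in low-Xist mice alone, and was 1 with every single mouse left out. Low-Xist mice alone gave calls in 0.876% of genes in place of 1.66%, with fewer samples, and leaving out 1 mouse gave 1.38 to 1.79%. Window genes called went from 4 to 2 at an adjusted p of 0.05, 2 with the Y-linked covariate, 1 in low-Xist mice, and 8 in a window of 30 Mb from 95 Mb on. Leaving out 1 mouse gave 2 to 4, with 2 without A52, B60, B61, B93 or B99. For the difference among strata, DESeq2 called 0.105% of genes and the replicate block 0.0111%, against 0, and leaving out 1 mouse gave 0 to 0.0439%, the highest without A17, and 0.0055% without A75 or A77.

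At 6 months on placebo, the share of genes called, 0.0715%, became 0.829% with DESeq2, 0.354% with no filter, 0.0238% with the Y-linked covariate and 0.23% with all groups in one fit. Leaving out 1 mouse gave 0.0352 to 1.21% (1.21% without A17, 0.136% without A37, 0.0352% without A74, 0.0353% without A31). The number of the 4 genes called became 1 with DESeq2 and ranged from 0 to 1, with 1 (Arpp21, adjusted p = 0.032 with edgeR) without A75. At 10 months on placebo, 0.324% became 0.636% with DESeq2, 0.147% with the replicate block, 0.0884% with the Y-linked covariate and 0.647% with all groups, and 0.216 to 0.391% with 1 mouse left out. At 10 months on anle138b, 0.723% became 0.449% at an adjusted p of 0.05, 1.102% with DESeq2, 0.117% with the block, 1.55% with the Y-linked covariate and 1.04% with all groups, and 0.365 to 0.886% with 1 mouse left out (0.365% without B61, 0.399% without B60, 0.475% without B58 or B109, 0.48% without B59). For chow in WT mice, all groups in one fit gave 0.0055% in place of 0. Window genes among the 20 most like Rpl29 and Tma7 went from 6 to 2 and from 4 to 0 with Spearman's rho, and for Arpp21 from 1 to 0 with deviations from group means. The cause of these changes was not tested.

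Signs changed only for log2 fold changes that were not called. For genotype at 10 months on anle138b, Col6a5 was −0.48 with the block, −0.31 with the Y-linked covariate and −0.19 to 0.21 with 1 mouse left out. For chow in APPPS1ΔE9 mice, Col6a5 was 0.10 with the Y-linked covariate, Rpl29 was 0.012 and Tma7 0.027 with the block, and Arpp21 was −0.0044 with the block and −0.0041 with the Y-linked covariate. With 1 mouse left out, Col6a5 ranged from −0.24 to 0.23 and Arpp21 from −0.059 to 0.083 there. In WT mice Rpl29 ranged from −0.072 to 0.044 and Arpp21 from −0.018 to 0.21, and Tma7 for genotype at 10 months on placebo from −0.036 to 0.10.

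Replicate numbers did not pair the samples, since no comparison had every pair's correlation of deviations over 0.1. For genotype the mean was 0.0080 over 4 pairs at 6 months on placebo (−0.26 to 0.20), and over 5 pairs 0.039 at 10 months on placebo (−0.48 to 0.51) and 0.15 on anle138b (−0.15 to 0.56). For chow it was −0.22 in APPPS1ΔE9 (−0.55 to 0.06) and 0.31 in WT mice (−0.22 to 0.57). With the replicate block, Arpp21 was still called over the 30 mice. Depth limits Gm15610, Gm6916 and Gm36993 most, which had at most 45 reads in a library.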

Other observations

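Genes with 7 of the 9 mice lowest for Rpl29 among their own 9 lowest included, beside the 5 genes named above, Abhd14a and Cep63 inside the chromosome 9 window and Ccl28, Gcdh, Gm10033 and Scoc outside it. At the other end, Col6a5 and Col6a6 in the window and Rassf9 and Tsku outside it had 7 of the 9 among their 9 highest. Col6a5 was chosen by its levels in mice that include B15, B16, B27 and B84. These genes were singled out after their values were seen and no test was made of them.

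Mouse B39 had 168 reads on the 46 copies of Rpl29, and 21.05 CPM of Rpl29 with its copies, the highest of the 38 mice. It also had the highest Poc1a level, 15.9 CPM. Its library had reads on more genes than any other, and the part of this in these values was not tested.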
